A study of Mus musculus with 20 samples.

Results

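The genes described here lie in the nuclear genome and encode subunits of the mitochondrial respiratory chain and of ATP synthase. They were taken by symbol: every gene on the array whose symbol starts with Nduf, Uqcr, Cox4i, Cox5, Cox6, Cox7, Cox8 or Atp5, together with Sdha, Sdhb, Sdhc, Sdhd and Cycs. The rule uses symbols and no level or test. It gave 95 probe sets for 93 symbols among the 21928 symbols of the array, and each symbol was followed through its probe set of highest mean. A filter on dim probe sets kept 90 of the 93, among 12462 genes tested in all. The 90 were 37 genes of complex I, 7 complex I assembly factors with the prefix Ndufaf, 4 of complex II, 8 of complex III, Cycs, 16 of complex IV and 17 of complex V. The prefix rule also takes in genes that are no subunit of the complex their symbol names. Ndufa4 is now counted as a subunit of complex IV, and Atp5s and Atp5sl, now named Dmac2l and Dmac2, are factors rather than subunits. Subunits encoded in mitochondrial DNA were not analysed here.

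The respiratory chain passes electrons from NADH through complex I, or from succinate through complex II, to coenzyme Q, then through complex III and cytochrome c to complex IV, which reduces oxygen. Complexes I, III and IV pump protons across the inner mitochondrial membrane, and complex V uses the gradient to make ATP. A resting T cell that is stimulated through its antigen receptor enlarges and multiplies its mitochondria, and Treg cells, regulatory T cells that need the transcription factor Foxp3 and hold immune responses in check, rely on respiration for their function.

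RNA was measured on 20 Affymetrix mouse arrays of cTreg cells, CD4+YFP+CD44loCD62Lhi by the labels, sorted from spleen and peripheral lymph nodes of Foxp3YFP-Cre C57BL/6J mice, in which YFP and Cre are expressed from Foxp3. DMSO_0h held 3 arrays of cells with no stimulation named. At 18 h there were 3 FTI_18h, 2 GGTI_18h and 3 DMSO_18h arrays, and at 48 h 3 FTI_48h, 3 GGTI_48h and 3 DMSO_48h arrays. All groups but DMSO_0h received anti-CD3/28 antibody (10 ug/ml) together with IL-2 (200 U/ml) in culture. The inhibitors were given 2 h earlier. No group had culture alone, so that against DMSO_0h the antibody, IL-2 and time in culture cannot be told apart. Stimulation below means these together. The labels call FTI and GGTI prenylation inhibitors. These are the usual short names of inhibitors of the enzymes that attach farnesyl and geranylgeranyl lipids to proteins. Neither the compounds nor the doses are named in the labels. Whether the arrays of a group came from separate mice is not said either, so that a p-value here measures array-to-array spread and may reflect technical repeats.

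All values are log2 levels after RMA, which sets every array to 1 distribution, so that a change is relative to the other genes of the array and not per cell. The median level over the genes tested lay between 7.63 and 7.91 on all arrays. Negative-control probe sets had medians of 5.58 to 5.67 on the DMSO_0h arrays, above the 4.94 to 5.32 of the other groups. Foxp3, Ctla4, Ikzf2, Cd4, Cd3e and Cd3g were above that median on 20 of 20 arrays, as was Bcl2. Il2ra was above it on 17, and not on the 3 DMSO_0h arrays. Lyz2, Itgax, Ncr1, Klrb1c and Klra8, defining markers of myeloid and natural killer cells, were above it on 0 of 20 arrays. Cd79a, Cd68, Cst3, Adgre1, Cd8a, Cd8b1, Hba-a1 and Alas2 were above it on all 20, and the other 8 such markers on 1 to 14. The array's annotation marks none of the 95 member probe sets as cross-hybridizing, although many of these genes have processed pseudogenes in the mouse genome.

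Because the members are known to share regulatory sequence, the promoters of 4 of them are shown before the values. Windows from 250 bases before to 50 bases after the annotated start, from RefSeq on GRCm38.p6, were found for 77 of the 93 members. Ndufb2 is shown as the member with the highest fold change on stimulation, Atp5k and Ndufaf4 as members with the letters that nuclear respiratory factor 1 binds, and Cox7a2l as a member whose RNA went the other way. Capitals mark the letters of nuclear respiratory factor 1 (NRF1), which are GCGCA followed directly by its reverse complement TGCGC, and AAGGTCA of the estrogen-related receptors (ERR), on the strand shown. Counted from the start, the NRF1 letters begin at position -50 in Atp5k and at -113 in Ndufaf4.
Ndufb2, chr6:39592315-39592614, plus strand: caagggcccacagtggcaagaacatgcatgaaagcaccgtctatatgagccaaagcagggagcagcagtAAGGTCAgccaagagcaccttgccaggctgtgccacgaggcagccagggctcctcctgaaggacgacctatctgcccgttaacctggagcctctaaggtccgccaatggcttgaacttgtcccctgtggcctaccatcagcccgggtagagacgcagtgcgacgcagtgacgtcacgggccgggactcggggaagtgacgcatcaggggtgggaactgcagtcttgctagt
Atp5k, chr5:108434350-108434649, minus strand: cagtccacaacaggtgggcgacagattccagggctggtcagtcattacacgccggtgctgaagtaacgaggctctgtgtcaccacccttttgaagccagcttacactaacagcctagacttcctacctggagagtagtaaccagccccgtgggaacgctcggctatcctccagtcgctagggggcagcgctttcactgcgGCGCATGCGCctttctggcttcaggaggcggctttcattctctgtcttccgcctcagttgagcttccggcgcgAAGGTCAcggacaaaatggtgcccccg
Ndufaf4, chr4:24897833-24898132, plus strand: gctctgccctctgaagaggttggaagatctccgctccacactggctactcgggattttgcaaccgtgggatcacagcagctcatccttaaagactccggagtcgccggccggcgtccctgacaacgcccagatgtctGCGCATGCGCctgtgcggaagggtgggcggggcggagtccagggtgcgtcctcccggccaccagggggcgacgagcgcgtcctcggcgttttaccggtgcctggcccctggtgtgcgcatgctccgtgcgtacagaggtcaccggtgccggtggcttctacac
Cox7a2l, chr17:83514284-83514583, minus strand: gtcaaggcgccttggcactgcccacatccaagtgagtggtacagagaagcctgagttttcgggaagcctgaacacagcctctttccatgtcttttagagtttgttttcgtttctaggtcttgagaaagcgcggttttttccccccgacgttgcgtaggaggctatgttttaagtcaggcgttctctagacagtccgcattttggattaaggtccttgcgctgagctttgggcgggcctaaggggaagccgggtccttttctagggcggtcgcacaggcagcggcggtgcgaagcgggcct

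Both strands were searched for exact letters. The NRF1 letters occurred in 7 of the 77 members with a window (9.09%), against 1.07% of the 27025 genes with a window. The members were Atp5g2, Atp5k, Cox6a1, Ndufa11, Ndufaf4, Ndufaf5 and Uqcrc1. AAGATGGC, which Yin Yang 1 (YY1) binds, occurred in 11 members (14.3%), against 3.19% of all genes. In 9 of the 11 it lay on the gene's own strand with its first base 23 to 39 bases after the start. AAGGTCA occurred in 10.4% of the members, against 5.38% of all genes. CCGGAAGT of the GA-binding protein (GABP) occurred in 6.49%, against 4.31%, and the E-box CACGTG in 9.09%, against 8.09%. Such a match describes letters, not binding. Of the 65 members with a window that were higher in DMSO_18h, 7 (10.8%) held the NRF1 letters. Of the 17 that were lower in GGTI_48h, 1 (5.88%) did, too few to compare the shares.

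The comparison of DMSO_18h with DMSO_0h asks how these RNAs differ after antibody, IL-2 and 18 h together, without an inhibitor. Of the 90 members, 76 were higher and 5 lower in DMSO_18h at an adjusted p under 0.05 (limma, Benjamini-Hochberg over all genes tested). Of all genes tested, 60.9% were called in this comparison, 33.7% as higher and 27.2% as lower. The members' median log2 fold change was 0.70, against 0.00 over all genes tested. At 18 h, 27 members were called and at least 2-fold higher, and the share of all genes past that fold was not counted. In the 48 h comparison, DMSO_48h over DMSO_0h, 78 members were higher and 6 lower, where 74.7% of all genes were called, 38.5% as higher and 36.2% as lower. The median was 0.83, against -0.02 over all genes. These comparisons share the DMSO_0h arrays. In sorted bulk samples, fewer cells of a type and less RNA per cell cannot be told apart. Markers of other cells moved as well, in both directions. In DMSO_18h over DMSO_0h the myeloid marker Cd68 fell by 1.19 and the other tested one, Cst3, rose by 0.60. Of the B-cell markers Cd79a fell by 0.63 and Cd79b, at 0.33, did not pass. Cd8b1 fell by 0.28, or by 0.17 without DMSO_18h array 1, and Cd8a, at -0.55, did not pass. Of the red-cell genes, Hbb-bs fell by 1.63, Hbb-bt by 1.41 and Hba-a1 by 0.47, while Alas2 did not pass. Over all 7 myeloid markers, with Lyz2 and Itgax under background throughout, the mean level was 5.82 to 5.88 in DMSO_18h and 6.13 to 6.25 in DMSO_0h, and over the 5 B-cell markers 5.42 to 5.77 in DMSO_18h and 5.53 to 5.79 in DMSO_0h; the negative-control medians were lower in DMSO_18h too. Their part in the members' change was not tested.

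**Figure D1:**
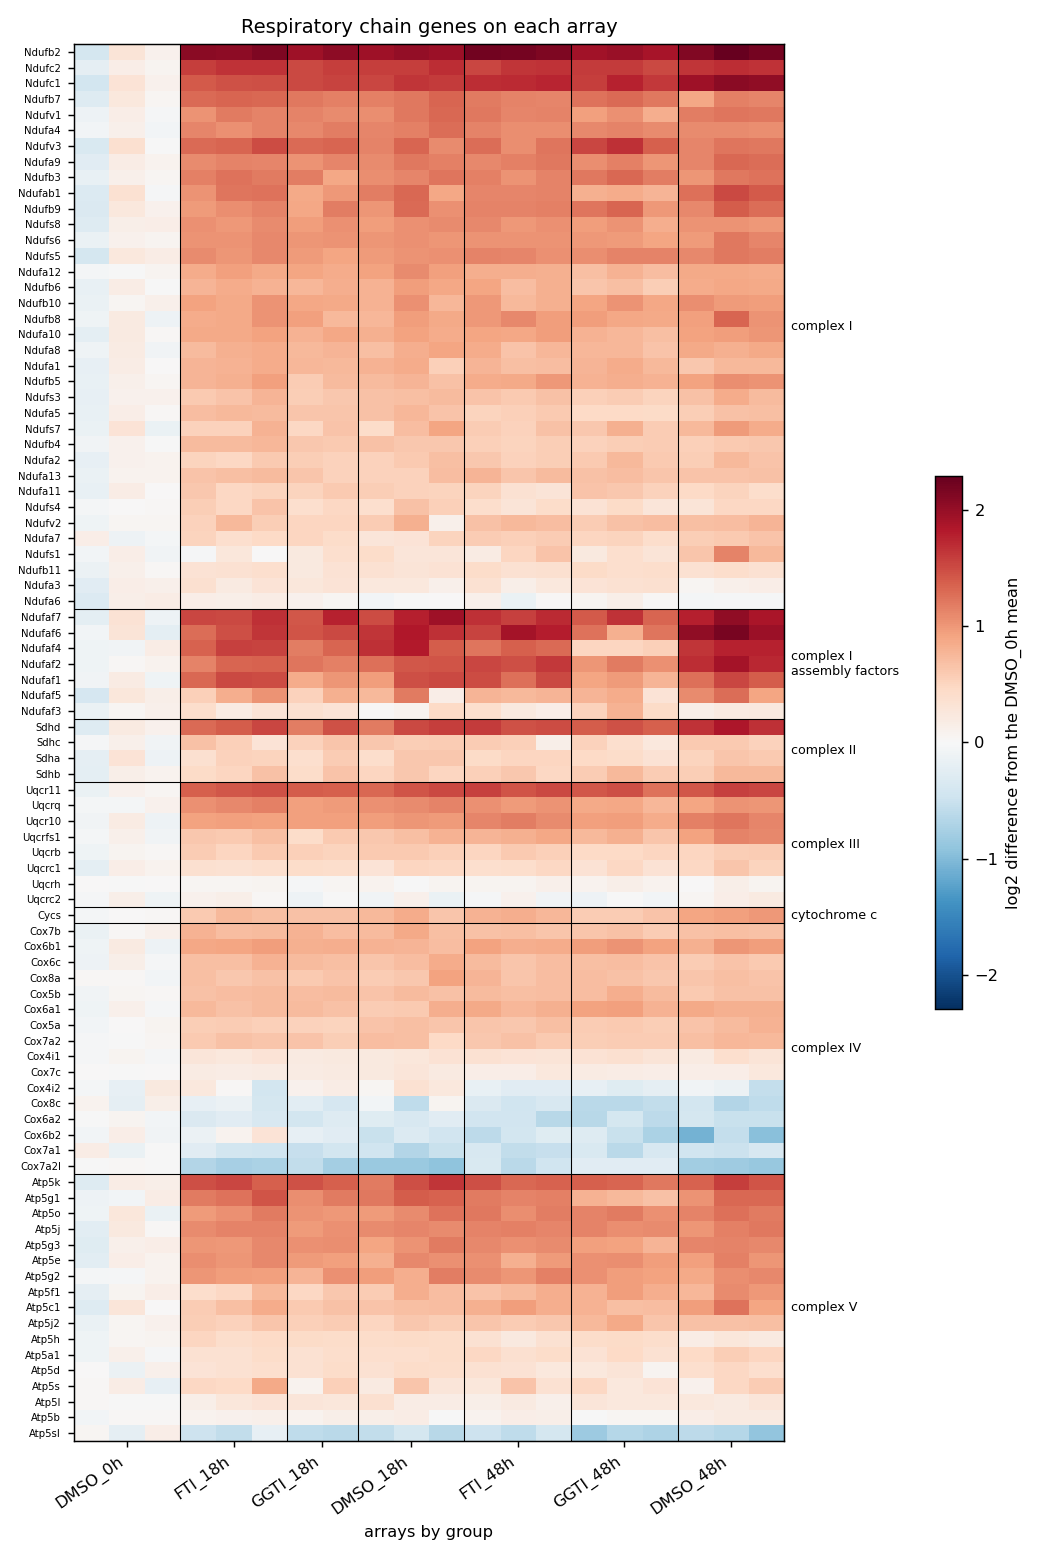
Level of the members, all but 1 of those tested, on each of the 20 arrays as the log2 difference from the DMSO_0h mean (colour scale), with genes in rows by complex, ordered within a complex by the 18 h change, and arrays in columns by group. All stimulated groups are red for most members, and the lower part of the complex IV block, with Cox7a2l at its end, is blue.

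The heat map of single arrays shows how uniform the change was. In 76 members all DMSO_18h arrays lay above all DMSO_0h arrays, in 5 all lay below, and in 9 the groups overlapped. Over all genes, 32.7% were without overlap and higher, and 26.9% lower. The mean level over the 90 members was 9.08 ± 0.12 in DMSO_0h, 9.80 ± 0.05 in DMSO_18h and 9.86 ± 0.06 in DMSO_48h (SD, n = 3 each).

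Complex I, the entry point for electrons from NADH, had 35 of 37 genes higher in DMSO_18h and 0 lower, with a median of 0.86. Its 7 core subunits, among them those that carry the redox centres, were all higher, with a median of 0.69. The accessory subunits, which surround the core, included the highest fold change of all members. Ndufb2, an accessory subunit of the membrane arm, had 8.26, 8.96 and 8.75 in DMSO_0h, 10.61, 10.68 and 10.63 in DMSO_18h and 10.78, 10.95 and 10.84 in DMSO_48h. The lowest stimulated array was more than 1 log2 unit above the highest DMSO_0h array, although the 3 DMSO_0h arrays differed among themselves. The log2 fold change was 1.98 ± 0.12 (SE) at 18 h, or 3.94-fold (limma adjusted p = 6.47e-11), and 2.20 at 48 h. Ndufc2 and Ndufc1, which also belong to the membrane arm, rose by 1.62 and 1.59 at 18 h. Ndufc1 was among the few members to go on rising: it had 10.27, 10.40 and 10.36 in DMSO_48h, against 9.86, 9.97 and 9.93 in DMSO_18h, a difference of 0.43 (limma adjusted p = 0.0139).

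The exceptions in complex I were Ndufa3 and Ndufa6, accessory subunits that did not pass the test at either time. In Ndufa3 the 18 h difference was 0.20. Ndufa6 had 9.29, 9.35 and 9.37 in DMSO_18h, against 9.05, 9.48 and 9.53 in DMSO_0h. Its groups overlapped, and the log2 fold change of -0.02 had a 95% interval from -0.23 to 0.19. Ndufa13 has a second, dimmer probe set that differed in the other direction from the one used: it had 7.20 ± 0.09 in DMSO_18h and 7.48 ± 0.20 in DMSO_0h (SD, n = 3 each), while the brighter one rose by 0.59.

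The Ndufaf genes encode factors that build complex I and leave it before it is complete. Of 7, 6 were higher in DMSO_18h, with a median of 1.38 that was the highest of the groups of members described here. Ndufaf1 and Ndufaf5, counted among the 6, lay under the median of all probe sets on every DMSO_0h array. The filter thus kept them only through stimulated arrays, so their calls as higher are not independent of it. Ndufaf7, an arginine methyltransferase in human cells, rose by 1.74, and Ndufaf6 by 1.72. Ndufaf5 was less uniform, with 6.59, 7.05 and 6.01 in DMSO_18h, against 5.46, 6.11 and 5.99 in DMSO_0h. Its groups overlapped, and its rise of 0.70 was 0.45 without DMSO_18h array 2. Ndufaf4, which in human cells acts with NDUFAF3 early in assembly, had 7.63, 7.65 and 7.91 in DMSO_0h, 9.40, 9.55 and 9.12 in DMSO_18h and 9.37, 9.50 and 9.50 in DMSO_48h. It was 3.09-fold higher at 18 h (log2 1.63 ± 0.10, limma adjusted p = 1.39e-10), and the stimulated arrays stood apart from the unstimulated ones. Its partner Ndufaf3 was the member of the group that did not pass, with 6.71, 6.78 and 7.15 in DMSO_18h, against 6.53, 6.73 and 6.81 in DMSO_0h. Ndufaf1, part of the intermediate assembly complex with Ecsit and Acad9, averaged 5.34 in DMSO_0h, under that group's negative-control median of 5.64, so that the size of its rise of 1.32 is limited by background.

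Complex II, which oxidizes succinate and also belongs to the tricarboxylic acid cycle, had 4 of 4 subunits higher. Sdhd, a membrane anchor, had 8.83, 9.16 and 9.22 in DMSO_18h, against 7.35, 7.85 and 7.74 in DMSO_0h, and rose by 1.43. The flavoprotein Sdha, the iron-sulfur subunit Sdhb and the other anchor Sdhc rose by 0.54, 0.54 and 0.59.

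Complex III, which passes electrons from coenzyme Q to cytochrome c, had 6 of 8 subunits higher, with a median of 0.64. The small subunit Uqcr11 rose by 1.43. Uqcrh, the hinge protein at which cytochrome c docks, had 11.84, 11.76 and 11.83 in DMSO_18h, against 11.78, 11.75 and 11.77 in DMSO_0h. Its arrays overlapped within a range of 0.1 log2 unit, and the difference of 0.05 had a 95% interval from -0.08 to 0.17. Uqcrc2, a core protein, also did not pass, with a difference of -0.04 and an interval from -0.22 to 0.14. Cycs, the soluble carrier that also triggers apoptosis when it leaves mitochondria, had 10.34, 10.38 and 10.41 in DMSO_0h, 11.12, 11.23 and 11.01 in DMSO_18h and 11.28, 11.31 and 11.37 in DMSO_48h. The groups did not overlap at either step, and Cycs rose by 0.74 at 18 h and by a further 0.20 at 48 h (limma adjusted p = 0.0338).

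**Figure D2:**
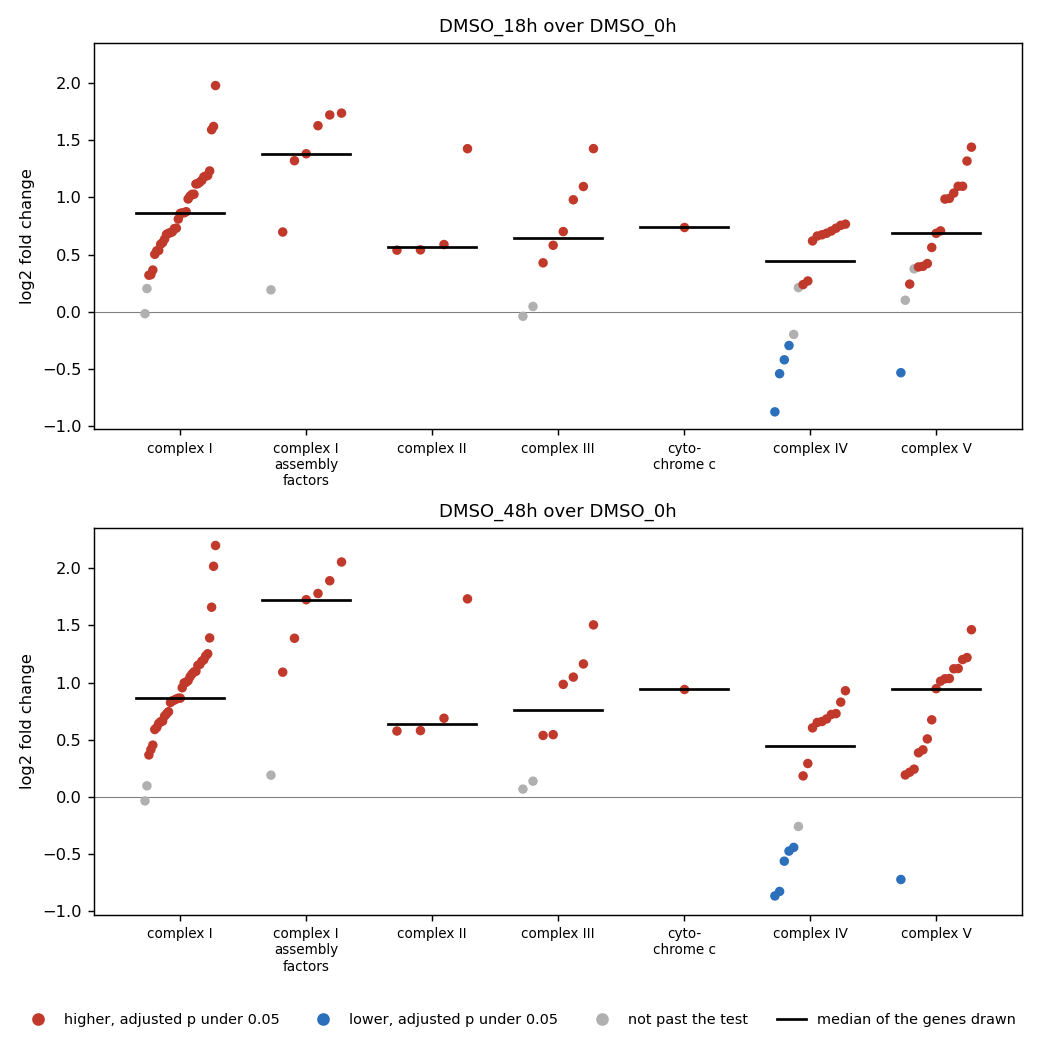
Log2 fold change of each member (points) in DMSO_18h over DMSO_0h (top) and DMSO_48h over DMSO_0h (bottom), by complex, with the median of the genes drawn as a bar. Red and blue points passed the limma test as higher and lower, and grey points did not; the blue points are in complex IV, with 4 at 18 h and 5 at 48 h, and in complex V, with 1 at each time.

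Complex IV, cytochrome c oxidase, held most of the members that were lower, as the plot of changes by complex shows. Of its 16 genes 10 were higher and 4 lower in DMSO_18h, and 10 were higher and 5 lower in DMSO_48h. The 10 higher ones were the forms used in most tissues, and their fold changes lay close together, between 0.24 for Cox7c and 0.77 for Cox7b, with a median of 0.68. Cox4i1, the ubiquitous form of subunit 4, rose by 0.27 and Cox7a2 by 0.62. Ndufa4, counted with complex I by its symbol, rose by 1.19.

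The isoforms that are mainly expressed in muscle, testis or lung were not among the higher members. Cox7a1, the muscle form of the subunit, had 6.46, 6.25 and 6.40 in DMSO_18h, against 7.08, 6.75 and 6.90 in DMSO_0h, and Cox6a2, also a muscle form, had 7.22, 7.14 and 7.25 in DMSO_18h, against 7.49, 7.57 and 7.43 in DMSO_0h. Neither pair of groups overlapped, and the changes were -0.54 and -0.30. Cox6b2, a testis form, was lower by 0.42. Cox4i2 and Cox8c did not pass at 18 h (0.21 and -0.20), and Cox8c was lower in DMSO_48h by 0.56. Negative-control medians were lower in the stimulated groups too, and the part of that shift in these dim genes was not tested. With each array centred on the median of all its probe sets, Cox6a2 and Cox6b2 no longer passed at 18 h, and Cox6b2 also lost its call without DMSO_0h array 2 or DMSO_18h array 1. The highest limma adjusted p over the alternatives was 0.0533 for Cox6a2 and 0.0739 for Cox6b2. Cox7b2 stayed under the negative-control median in all 7 groups, and Cox8b and Ndufa4l2 lay near it, and none of the 3 passed the filter.

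Cox7a2l, which joins complexes III and IV into supercomplexes and is made in a shortened form in C57BL/6 mice, was lower at both times. It had 10.67, 10.71 and 10.67 in DMSO_0h, 9.83, 9.82 and 9.76 in DMSO_18h and 9.89, 9.87 and 9.81 in DMSO_48h. Every stimulated DMSO array was at least 0.7 log2 unit under every DMSO_0h array. The change was -0.88 ± 0.07 at 18 h, a ratio of 0.545 (limma adjusted p = 7.49e-09), and -0.83 at 48 h.

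Complex V, ATP synthase, had 14 genes higher and 1 lower of 17 in DMSO_18h, and 16 higher and 1 lower in DMSO_48h. Atp5k, the subunit e of the membrane part, rose by 1.44. The 3 genes Atp5g1, Atp5g2 and Atp5g3 encode the same mature subunit c, of which the rotating ring is built, and rose by 1.32, 0.98 and 1.04. The catalytic subunit Atp5b had 11.92, 11.95 and 11.76 in DMSO_18h, against 11.71, 11.81 and 11.81 in DMSO_0h, a difference of 0.10 that did not pass at 18 h. Atp5sl, a factor and no subunit, was the lower gene, at -0.53. Without it and Atp5s, 0 of the 15 genes left were lower at either time. A second, dimmer probe set of Atp5d had 6.66 ± 0.04 in DMSO_18h and 7.12 ± 0.27 in DMSO_0h (SD, n = 3 each), while the brighter one rose by 0.39.

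The comparison of the stimulated times asks what followed after 18 h. In DMSO_48h over DMSO_18h, 12 of 90 were called, 8 higher and 4 lower, where 29.1% of all genes were, 16.4% as higher and 12.6% as lower. The higher ones were Ndufa7, Ndufb5, Ndufc1, Ndufs1, Ndufaf2, Uqcrfs1, Cycs and Atp5c1, with the largest difference in Ndufs1, the largest core subunit of complex I. It had 7.64, 8.14 and 7.74 in DMSO_48h, against 7.42, 7.27 and 7.27 in DMSO_18h, a difference of 0.52 (limma adjusted p = 0.00655) that did not pass without DMSO_48h array 2. The lower ones were Cox4i2, Cox6b2, Cox8c and Atp5h. With arrays centred on the median of gene probe sets 15 were higher and 0 lower, and with all probe sets 13 and 1. Left out singly, DMSO_48h array 2 brought the 12 calls to 5, and DMSO_18h array 1 and DMSO_48h array 3 each lowered them by more than 1.5 times.

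Genes that serve the chain without being members were described from lists chosen with earlier results of these data known. For all the lists the shares over all genes, 33.7% higher and 27.2% lower, are the ones to read against. Of 43 assembly factors outside the prefix rule, 29 were higher and 2 lower in DMSO_18h, with a median of 0.61, beside 0.70 for the members. Cox15, which makes the haem of complex IV, rose by 1.36 and Ecsit by 1.30. Of 13 genes of coenzyme Q synthesis 8 were higher and 2 lower. Coq7, the hydroxylase of a late step, had 5.36, 4.67 and 6.03 in DMSO_0h, 8.27, 8.45 and 8.74 in DMSO_18h and 8.88, 9.16 and 9.03 in DMSO_48h. It passed as higher, but its mean in DMSO_0h was not above background, so that the size of its rise is not measured. Of 17 genes of the tricarboxylic acid cycle and pyruvate dehydrogenase 11 were higher and 0 lower, with Idh3a, a subunit of isocitrate dehydrogenase, at 1.71. Of 14 genes that maintain or transcribe mitochondrial DNA 9 were higher and 1 lower. Lrpprc, which stabilizes mitochondrial messenger RNA, rose by 1.27, and Polg2, the accessory subunit of the mitochondrial DNA polymerase, was at -1.73. Lrpprc and Twnk of this list, Coq7, and the assembly factors Sdhaf3, Sdhaf4 and Tmem126b lay under the median of all probe sets on every DMSO_0h array. The filter kept them only through stimulated arrays, so any calls of these genes as higher are not independent of it. Of 9 transcription factors and coactivators of respiratory genes 3 were higher and 3 lower, about the share of all genes. The coactivator Pprc1 rose by 0.94. Myc rose by 1.25, but DMSO_0h array 2, at 9.24, lay apart from the other DMSO_0h arrays, at 10.87 and 10.74, and without it the difference was 0.73. Nrf1, Yy1 and Gabpb1 were at -0.67, -0.56 and -0.83.

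At 18 h neither inhibitor gave a called member. In FTI_18h over DMSO_18h 0 of 90 passed by limma, where 3.3% of all genes did. An unadjusted p under 0.05 was found for 2 members (2.22%), against 16.6% of all genes. In GGTI_18h over DMSO_18h 0 passed, where 5.94% of all genes did, and 4 (4.44%) had an unadjusted p under 0.05, against 18.4% of all genes. In both comparisons the 95% intervals of all 90 members lay within 1 log2 unit of 0, and 84 and 85 of them within 0.5. The largest difference under FTI was in the dim gene Cox6b2, with 6.87, 7.09 and 7.32 in FTI_18h, against 6.51, 6.70 and 6.56 in DMSO_18h. It was 0.50, with an interval up to 0.80, and did not pass. GGTI_18h rests on 2 arrays. Ndufaf4 came nearest under GGTI, with 8.90 and 9.05 in GGTI_18h, against 9.40, 9.55 and 9.12 in DMSO_18h, a difference of -0.38 (limma adjusted p = 0.057). GGTI_18h over FTI_18h gave 0 members, where 2.29% of all genes passed. At an unadjusted p under 0.05 there were 3 members (3.33%), against 13.4% of all genes. The comparisons of FTI and GGTI with DMSO at a given time share the DMSO arrays.

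At 48 h FTI changed 2 members, 1 higher and 1 lower, where 7.66% of all genes were called, 4.58% as higher and 3.08% as lower. Ndufaf4 had 8.95, 9.10 and 9.02 in FTI_48h, against 9.37, 9.50 and 9.50 in DMSO_48h. Cox7a2l had 10.33, 10.07 and 10.23 in FTI_48h, against 9.89, 9.87 and 9.81 in DMSO_48h. For neither gene did the groups overlap, and the differences were -0.43 (limma adjusted p = 0.0132) and 0.35 (limma adjusted p = 0.00562). Without DMSO_48h array 2 or 3, or FTI_48h array 1, Ndufaf4 no longer passed, with adjusted p of up to 0.0724. Intervals of 80 of the 90 members lay within 0.5 of 0.

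GGTI at 48 h changed 23 of 90 members, 4 higher and 19 lower, a share of 25.6% where 40.3% of all genes were called, 18.4% as higher and 21.9% as lower. The median member differed by -0.08, against -0.01 over all genes. Of the 90 members 39 had all GGTI_48h arrays below all DMSO_48h arrays and 11 had all above, where 29.8% and 25.3% of all genes did. Ndufaf4 was the 1 member that fell at least 2-fold, and the share of all genes past that fold was not counted. Array choice weighed on the count of 23 members. Without DMSO_48h array 2 it was 13, and leaving out GGTI_48h array 1 or 3 also lowered it by more than 1.5 times. With arrays centred on the median of all probe sets 2 were higher and 29 lower.

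**Figure D3:**
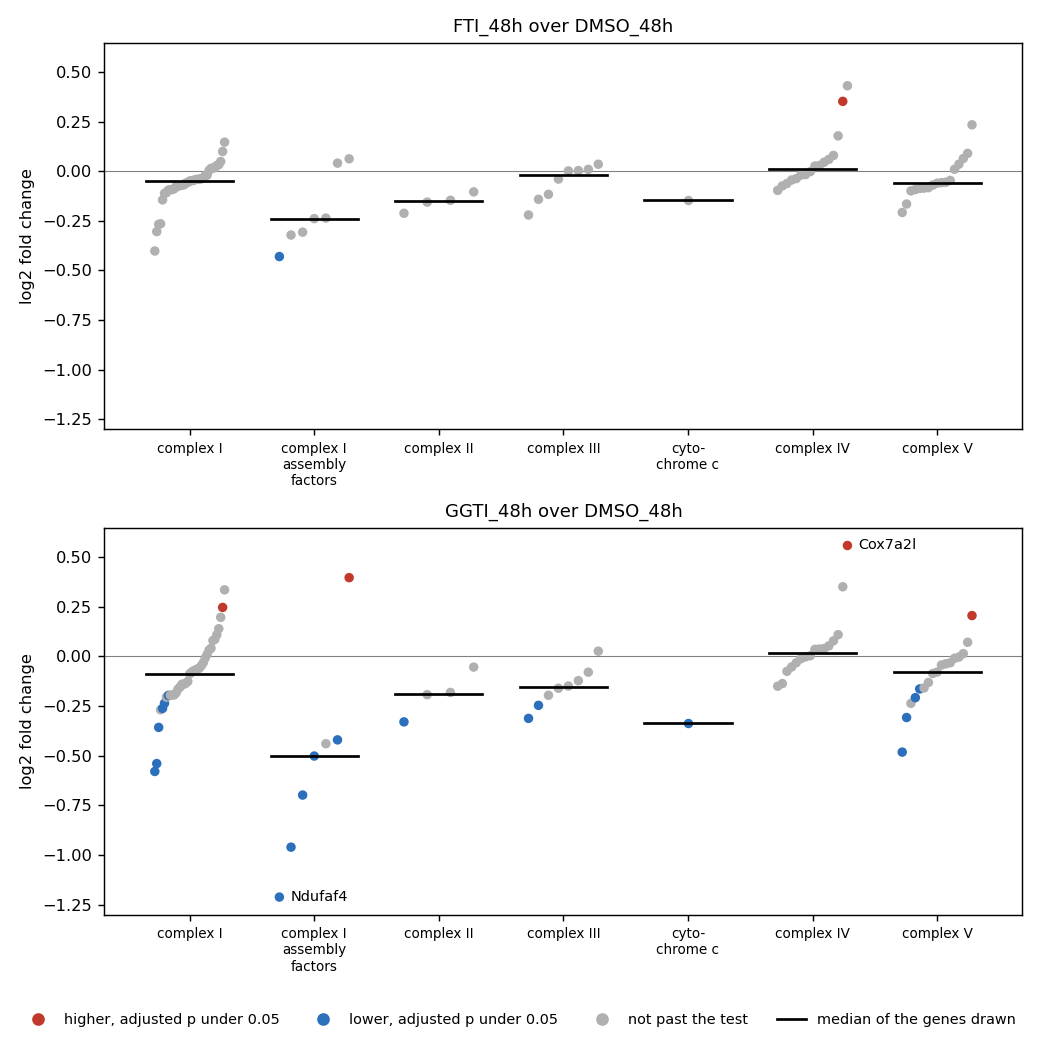
Log2 fold change of each member (points) in FTI_48h over DMSO_48h (top) and GGTI_48h over DMSO_48h (bottom), by complex, with the median of the genes drawn as a bar; red and blue points passed the limma test and grey points did not. Ndufaf4 at -1.21 and Cox7a2l at 0.56 are the extremes under GGTI.

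The lowest 3 fold changes of all members belonged to assembly factors of complex I, as the plot of inhibitor effects shows. Of 7, 5 were lower and 1 higher in GGTI_48h, with a median of -0.50. Ndufaf4 had 8.22, 8.23 and 8.28 in GGTI_48h, against 9.37, 9.50 and 9.50 in DMSO_48h. The 3 GGTI_48h arrays agreed within 0.1 log2 unit and lay between the DMSO_0h and the DMSO_48h arrays. The difference was -1.21 ± 0.10, a ratio of 0.432 (limma adjusted p = 3.01e-08). Ndufaf6 had 7.58, 7.15 and 7.55 in GGTI_48h, against 8.37, 8.50 and 8.30 in DMSO_48h, and fell by 0.96. Ndufaf2, which binds a late assembly intermediate, had 8.74, 8.91 and 8.77 in GGTI_48h, against 9.43, 9.63 and 9.46 in DMSO_48h, and fell by 0.70. Ndufaf1 and Ndufaf7 fell by 0.50 and 0.42, while Ndufaf7 no longer passed without DMSO_48h array 2 or GGTI_48h array 1 or 3. Ndufaf3 went the other way: 7.21, 7.49 and 7.13 in GGTI_48h, against 6.83, 6.90 and 6.91 in DMSO_48h, a rise of 0.40 (limma adjusted p = 0.00997) that did not pass without GGTI_48h array 2. The Ndufaf5 difference of -0.44 did not pass.

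Of the 37 complex I genes, 6 were lower and 1 higher, with a median of -0.09. Ndufab1, the mitochondrial acyl carrier protein, which is also part of complex I, had 9.12, 9.16 and 9.08 in GGTI_48h, against 9.57, 9.82 and 9.72 in DMSO_48h, and fell by 0.58. Ndufs1 fell by 0.54, with 7.22, 7.39 and 7.29 in GGTI_48h, a level close to that of DMSO_18h. Ndufc1, the flavin-binding core subunit Ndufv1, Ndufb6 and Ndufa5 were lower by 0.36, 0.26, 0.24 and 0.20, and Ndufa3 was higher by 0.25. Ndufb2, which had the highest rise on stimulation, did not pass (-0.27, limma adjusted p = 0.0768).

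Among the later complexes the called differences were all under 0.5 log2 unit, except for Cox7a2l. Sdhd was lower by 0.33 and the other complex II subunits did not pass; Sdhd too did not pass in 7 of 12 alternatives. The Rieske iron-sulfur protein Uqcrfs1 and the small subunit Uqcr10 fell by 0.31 and 0.25. Cycs had 10.95, 10.97 and 11.04 in GGTI_48h, against 11.28, 11.31 and 11.37 in DMSO_48h, and fell by 0.34. Atp5g1 had 9.75, 9.70 and 9.64 in GGTI_48h, against 9.98, 10.28 and 10.27 in DMSO_48h, and fell by 0.48, while Atp5g2 and Atp5g3, which encode the same mature protein, differed by -0.04 and -0.24 and did not pass. Of the other ATP synthase genes, Atp5c1, Atp5d and Atp5b were lower by 0.31, 0.21 and 0.16 and Atp5h was higher by 0.21. Without DMSO_48h array 2 the difference of Atp5c1 was -0.20.

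In complex IV none of the 10 ubiquitous subunits passed under GGTI, with differences between -0.15 and 0.11. Cox7a2l had 10.41 on all 3 GGTI_48h arrays, against 9.89, 9.87 and 9.81 in DMSO_48h. It was higher by 0.56 ± 0.07, a ratio of 1.47 (limma adjusted p = 7.36e-06), and stood between the DMSO_48h and the DMSO_0h arrays.

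**Figure D4:**
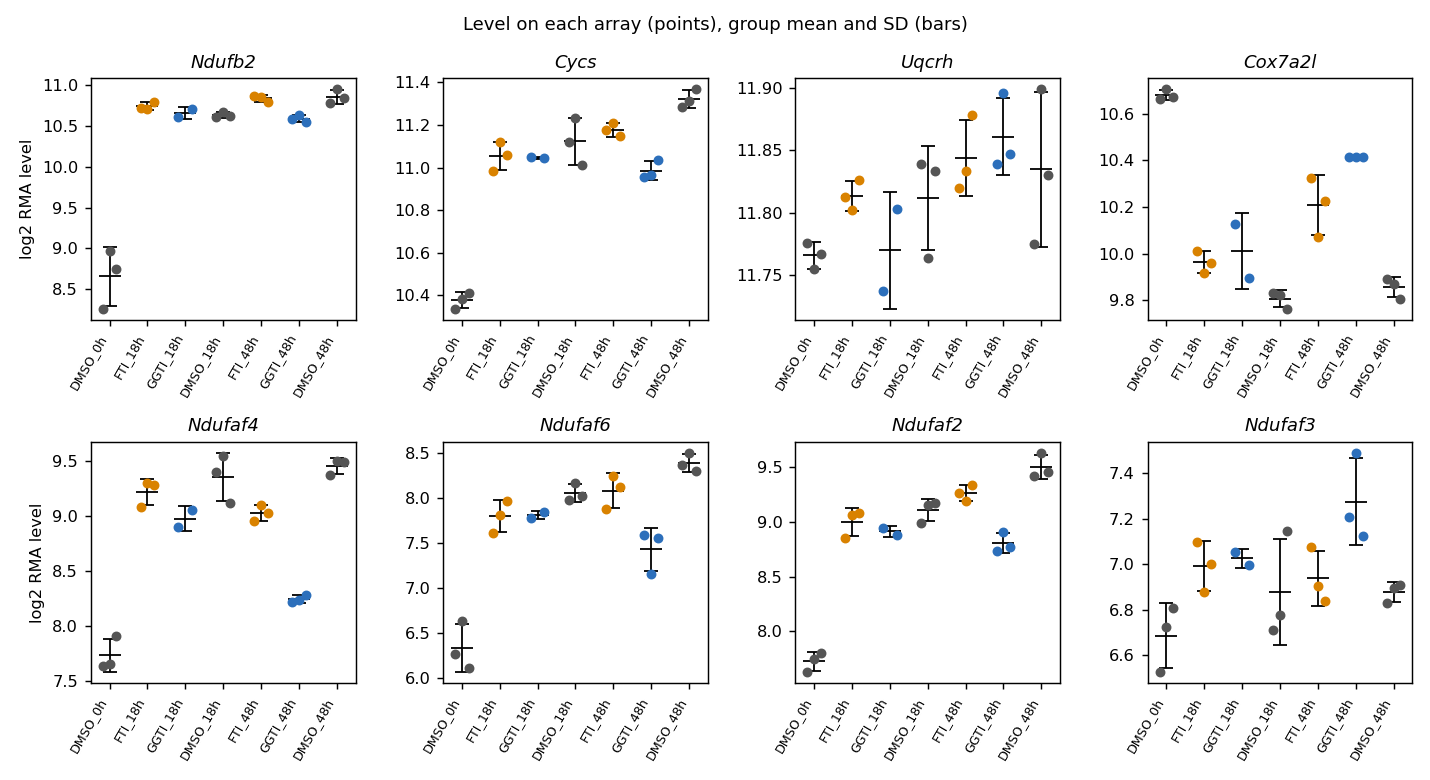
Log2 RMA level of 8 members on each array (points, in the order of the arrays within a group) with group mean and SD (bars), for DMSO in grey, FTI in orange and GGTI in blue; each panel has its own vertical axis, which does not start at 0. Ndufaf4, Ndufaf6 and Ndufaf2 are lower in GGTI_48h than in DMSO_48h, Ndufaf3 and Cox7a2l are higher, and Uqcrh spans under 0.2 log2 unit in all.

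The test of GGTI_48h against FTI_48h asks whether the inhibitors differ at the same time. Of 90 members 10 were called, 2 higher and 8 lower under GGTI, where 27.5% of all genes were, 13.6% as higher and 13.9% as lower. Ndufaf4 had 8.22, 8.23 and 8.28 in GGTI_48h, against 8.95, 9.10 and 9.02 in FTI_48h, a difference of -0.78 (limma adjusted p = 1.19e-05). Ndufaf6, Ndufaf1, Ndufaf2 and Atp5g1 were lower under GGTI by 0.65, 0.54, 0.46 and 0.42, and like Ndufaf4 they passed in all 12 alternatives. The calls of Ndufaf3 (0.33), Cox7a2l (0.21), Uqcr10 (-0.21), Cycs (-0.19) and Uqcrq (-0.18) were lost in 6 to 10 of the 12, and leaving out FTI_48h array 2 or 3 or any GGTI_48h array lowered the count by more than 1.5 times, to 5 at the lowest. With arrays centred on the median of all probe sets 0 were higher and 5 lower. Intervals of 81 members lay within 0.5 of 0.

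Whether an inhibitor acted differently at 48 h than at 18 h was tested by interaction. For FTI 0 of 90 members passed by limma, where 0.433% of all genes did. An unadjusted p under 0.05 was found for 1 member (1.11%), against 8.83% of all genes. For GGTI 3 passed and all were negative, where 9.51% of all genes passed, 4.97% as positive and 4.54% as negative. They were Ndufaf4 at -0.83, Ndufaf6 at -0.71 and Ndufaf2 at -0.51, and without DMSO_48h array 2 the count was 1. The plot of selected members shows both inhibitors at each time.

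Across the 90 members, the change in DMSO_18h over DMSO_0h and the difference of GGTI_48h from DMSO_48h, which share no array, had a Pearson r of -0.53 and a Spearman rho of -0.44. Across all 12462 genes tested they were -0.41 and -0.45. For FTI_48h over DMSO_48h in place of GGTI, they were -0.47 and -0.26 across members and -0.27 and -0.31 across all genes. Genes are not independent replicates, and all of them share the same arrays.

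**Figure D5:**
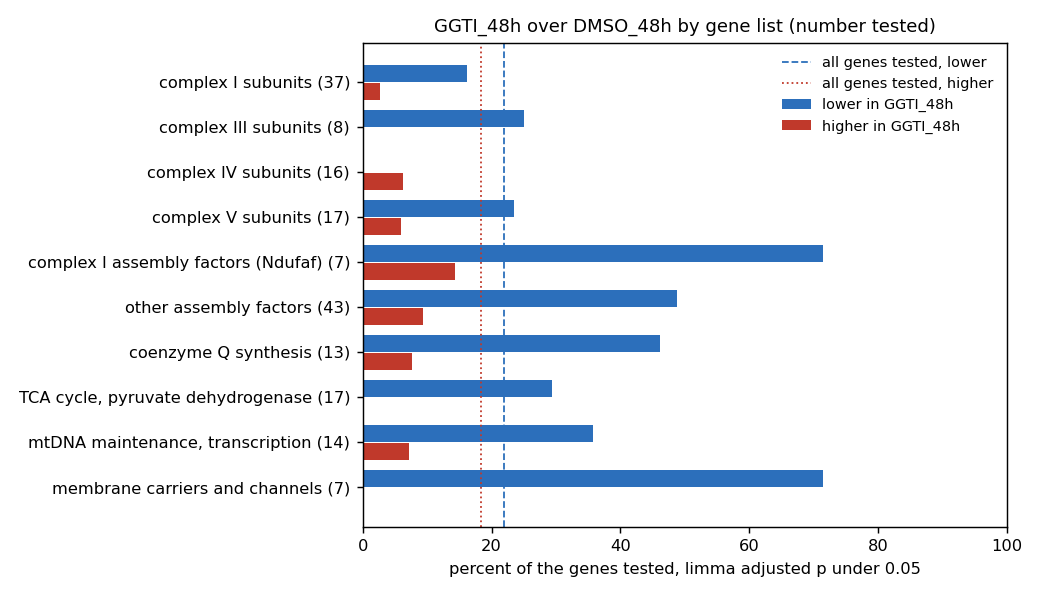
Percent of the genes tested in each list that were lower (blue bars) and higher (red bars) in GGTI_48h than in DMSO_48h by limma, with the number tested in brackets; the dashed and dotted lines mark the same for all genes tested, 21.9% lower and 18.4% higher. The 37 complex I subunits lie under the dashed line, and the 7 Ndufaf genes and 43 other assembly factors lie beyond it.

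The plot of gene lists sets the members beside other mitochondrial genes. Of 43 assembly factors outside the prefix rule 21 were lower and 4 higher in GGTI_48h, with a median of -0.28. Sco1, which carries copper to complex IV, had 6.12, 6.13 and 6.23 in GGTI_48h, against 7.02, 7.23 and 7.01 in DMSO_48h, and fell by 0.93. Coa7 and Cox10, which also act on complex IV, fell by 0.92 and 0.76 although its ubiquitous subunits did not pass, and Acad9, of the complex I intermediate assembly complex, by 0.41. Of the coenzyme Q genes 6 of 13 were lower and 1 higher, with Coq7 at -1.17, Coq3 at -1.07 and Coq4 at -0.77. Of the genes of mitochondrial DNA maintenance and transcription 5 of 14 were lower and 1 higher. Lrpprc had 6.51, 6.32 and 6.20 in GGTI_48h, against 7.41, 7.45 and 7.19 in DMSO_48h, and fell by 1.00, and Tfb2m, a transcription factor of mitochondrial DNA, fell by 0.79.

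Of the tricarboxylic acid cycle and pyruvate dehydrogenase genes 5 of 17 were lower, with Dld at -0.76, Idh3a at -0.75 and Dlat at -0.65. Of 7 carriers and channels of the mitochondrial membranes 5 were lower, by 0.42 at most (Vdac2). Of 9 transcription factors and coactivators 3 were lower and 1 higher: Pprc1, Gabpa and Nrf1 were at -0.80, -0.48 and -0.29, while Myc, at 0.03, did not pass. Under FTI at 48 h, where 7.66% of all genes were called, the calls in these lists were 2 of 43 assembly factors, 0 of 13 coenzyme Q genes, 1 of 17 cycle genes, 1 of 9 transcription factors and coactivators, 0 of 7 carriers and 0 of 14 genes of mitochondrial DNA maintenance. Among markers of other cells, Hba-a1 of red cells rose by 2.06, Cd79b of B cells by 0.84, Cd8b1 by 0.78 and Cst3 of myeloid cells by 0.29 in GGTI_48h over DMSO_48h. Hbb-bs, Hbb-bt and Alas2, Cd79a, Cd68 and Cd8a did not pass. Over the 7 myeloid markers the mean level was 5.89 to 6.00 in GGTI_48h and 5.69 to 5.75 in DMSO_48h. Over the 5 markers of CD8 T and natural killer cells it was 4.85 to 5.04 in GGTI_48h and 4.62 to 4.995 in DMSO_48h, and over the 5 B-cell markers 5.23 to 5.45 in GGTI_48h and 5.08 to 5.37 in DMSO_48h. Their part in the members' change was not tested.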

How the data were processed

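The 20 arrays were normalized with RMA in Affymetrix Expression Console 1.1, per the submitters' processing notes, and the deposited values are log2 levels per probe set. Per the labels' protocols, 1 to 20 ng of RNA was amplified with NuGEN WTA Pico v2. The labels name no array design. The pair of deposited tables agreed within 1.8e-15 and 1 was used. No 2 arrays were copies of each other, with a smallest mean absolute difference of 0.169. Accessions updated 907 symbols. A probe set was kept when above its array's median on at least 2 arrays. A dim gene could thus be kept through the groups where it was high. limma 3.58.1 in R 4.3.3 was fitted with 1 mean per group on all 20 arrays (residual degrees of freedom 13, prior 4.98; the residual SD had a median of 0.136), 2-sided, with Benjamini-Hochberg adjustment over 12462 genes at 0.05 in each of 11 comparisons. The step was tested on simulated data. Values after ± are SE of a log2 fold change or, where said, SD. The number of arrays limits the precision.

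Members, lists and comparisons were chosen with earlier results of these data known. Named are, per comparison, the called members with the 8 largest and 8 smallest changes, of each interaction the 5 of smallest p per direction, the complex II subunits, Cycs, the tissue-restricted isoforms with their partners, and up to 4 genes of smallest p per other list. Other members, and exceptions that did not pass, were named after their values were seen. Alternatives were no filter, centring on the median of gene or of all probe sets, trended and robust moderation, array weights, only the arrays compared, and leaving out each array. Leaving out each array for genes outside the members was chosen after seeing the data and gave differences of means, with no test. A few genes are not reported here. Figures were drawn with matplotlib.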

Additional observations from a re-analysis of the deposited data

Results flagged for a closer look

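For 3 members the effect of GGTI differed between 48 h and 18 h by the interaction test in limma, and all 3 are complex I assembly factors. The difference, 48 h minus 18 h, was -0.83 for Ndufaf4 (adjusted p = 0.00162), -0.51 for Ndufaf2 (adjusted p = 0.0167) and -0.71 for Ndufaf6 (adjusted p = 0.035). Ndufaf4 differed from DMSO by -1.21 in GGTI_48h and by -0.38 in GGTI_18h, which holds 2 arrays. Over 17 alternatives the difference for Ndufaf4 lay between -0.93 and -0.71 and passed in 17, with adjusted p of 0.000322 to 0.0178. For Ndufaf2 it lay between -0.56 and -0.44, passed in 15 and was lost without GGTI_18h array 1 or without DMSO_48h array 2. For Ndufaf6 it lay between -0.79 and -0.57 and passed in 9 of 17. With 2 or 3 arrays in each group, no group was examined for single outlying arrays.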

How the results depend on the processing

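No paired analysis was possible because the labels carry no replicate numbers that the groups share. No named member that passed in the main fit or in an alternative changed direction between them. Differences near 0 that passed in neither could change sign, as for Sdhb in GGTI_18h over DMSO_18h without GGTI_18h array 1. Without the filter on dim probe sets the members called were 15 for GGTI_48h over DMSO_48h (23 as reported) and 5 for GGTI_48h over FTI_48h (10 as reported). Centring on all probe sets gave 5 for GGTI_48h over FTI_48h. It moved the median of all genes to 0.11 at 18 h and 0.15 at 48 h over DMSO_0h, and 81 members were then higher and 3 lower at 18 h. Trended and robust moderation gave 1 member for FTI_18h, 1 for GGTI_18h and 35 for GGTI_48h over DMSO, and 5 for the GGTI interaction. Array weights, which ranged from 0.344 to 2.3, gave 1 for GGTI_18h, 8 for FTI_48h and 42 for GGTI_48h over DMSO, and 1 for GGTI_18h over FTI_18h.

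Leaving out 1 array at a time, the members called were 79 to 82 for DMSO_18h and 83 to 85 for DMSO_48h over DMSO_0h, 5 to 10 for DMSO_48h over DMSO_18h, 0 to 0 for FTI_18h, 0 to 1 for GGTI_18h, 1 to 3 for FTI_48h and 13 to 18 for GGTI_48h over DMSO, 0 to 0 and 5 to 8 for GGTI over FTI at 18 and 48 h, and 0 to 0 and 1 to 3 for the FTI and GGTI interactions. The 2 remaining arrays of a group, or the lone GGTI_18h array, were assumed to vary like the other groups. The cause of these shifts was not tested. Dim members, such as Ndufaf1 and the tissue-restricted isoforms, are limited by signal over background.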
